A study of Mus musculus with 3 samples.

Results

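Genes of matricellular and adhesive matrix proteins were examined in the mouse kidney at 13.5 and 11.5 days post coitum (dpc). The list held 10 genes, Sparc, Tnc, Postn, Thbs1, Thbs2, Spp1, Fn1, Vcan, Smoc2 and Ecm1. A gene was taken where the array's annotation gave a feature exactly 1 symbol, that of the gene, and where the feature had a value on all 3 arrays. This held for 7 of the 10 genes, among 14433 named genes and 19015 rows in all. The 7 genes had 9 features, because Tnc and Fn1 had 2 each. Postn had 1 feature with values on 2 arrays only, and Spp1 and Vcan matched no feature by this rule, so they were not analysed here.

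Each array carried fetal kidney of 13.5 dpc in channel 2 and metanephroi, the rudiments of the permanent kidney, of 11.5 dpc in channel 1. Both tissues were microdissected from normal CD1 embryos, a mouse stock, as pools of both sexes, and the RNA was amplified before labelling. By their labels the dyes ran red/green on arrays 1 and 2 and green/red on array 3. The labels do not state whether the arrays shared an RNA extract, so the p-values below cover the scatter among 3 arrays, part or all of which may be technical.

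Every value below is a log2 ratio of 13.5 over 11.5 dpc, so a positive value means more RNA at 13.5 dpc. The deposited ratios were read as 11.5 over 13.5 dpc, the likely direction from the order of ages and channels in the labels, and their signs were changed. The labels do not settle this direction, nor that of array 3, which was used as deposited. Across the 19015 rows the Pearson correlation of array 3 was 0.12 with array 1 and -0.12 with array 2, against 0.27 between arrays 1 and 2. At least 2-fold in favour of 13.5 dpc on every array were 83 rows as deposited and 28 with array 3 turned. Positive on every array were 3513 rows as deposited and 1957 with array 3 turned. Negative on every array were 3200 and 3601. Ratios hold no levels, so the tissue could not be checked by whether its markers were present, and fewer cells of a type cannot be told apart from less RNA per cell.

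Matricellular proteins are secreted into the matrix but act mainly as modulators: they bind collagens, growth factors, proteases and cell surface receptors, and change how cells adhere. Fibronectin differs in being a structural, adhesive protein that is built into fibrils and bound by integrins. In the developing kidney such proteins lie in the stroma, around vessels and beneath epithelia, where the ureteric bud branches and nephrons form.

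The 7 genes differed widely among themselves. Sparc, Smoc2 and Tnc had at least a 2-fold ratio in favour of 13.5 dpc on every array, 2.45-fold, 3.05-fold and 2.70-fold by their means. For Tnc this was the average of 2 features, the second of which was under 2-fold on arrays 1 and 3. Thbs2 had the highest mean of the 7, 3.27-fold, but this rested on 2 arrays. Thbs1, Fn1 and Ecm1 had means of 1.18-fold, 1.01-fold and 0.897-fold. No member passed limma's adjusted p of 0.05, nor did any of the 19015 rows, of which 1757 had an unadjusted p under 0.05. Without limma's moderation of the variance 0 rows passed, and 1829 fell under an unadjusted p of 0.05.

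Sparc, also known as osteonectin or BM-40, encodes a collagen-binding, calcium-binding glycoprotein of basement membranes and remodelling tissue. Its log2 ratios were 1.17, 1.13 and 1.56 on arrays 1, 2 and 3. All 3 arrays lay on the same side and close together, with array 3, the one of opposite dye order, the highest. The mean was 1.29 ± 0.24 (SD, n = 3 arrays), with a 95% interval of 0.81 to 1.77 from limma and an adjusted p of 0.359.

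Smoc2 encodes a secreted modular calcium-binding protein of the same wider family as Sparc. It had log2 ratios of 1.37, 1.64 and 1.82 on arrays 1, 2 and 3. Again no array stood apart, and the lowest value was more than 2-fold. Its mean of 1.61 ± 0.23 (SD, n = 3) had a 95% interval of 1.14 to 2.08 and the smallest limma p of the members, 0.00065 unadjusted and 0.326 adjusted.

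Tnc encodes tenascin-C, a large hexameric glycoprotein that weakens the adhesion of cells to fibronectin and is known from the mesenchyme around growing epithelia. Its first feature, annotated to a RefSeq transcript, had log2 ratios of 2.84, 1.66 and 1.55 on arrays 1, 2 and 3. The second feature, annotated to another sequence record of the gene, had 0.88, 1.09 and 0.58. Both features were positive on every array, and the first was the higher on each. They differed by 1.16 ± 0.72 (SD, n = 3 arrays), or 2.24-fold, most on array 1. Of 971 genes with several features, 13.6% had feature means over 1 log2 unit apart. Averaged over both features, Tnc had 1.86, 1.37 and 1.07, a mean of 1.43 ± 0.40, a 95% interval of 0.84 to 2.03 and an adjusted p of 0.359. Array 3 lay just past 2-fold, and after each array was centred on its median it had 0.97, which ended the 2-fold count for Tnc.

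**Figure D1:**
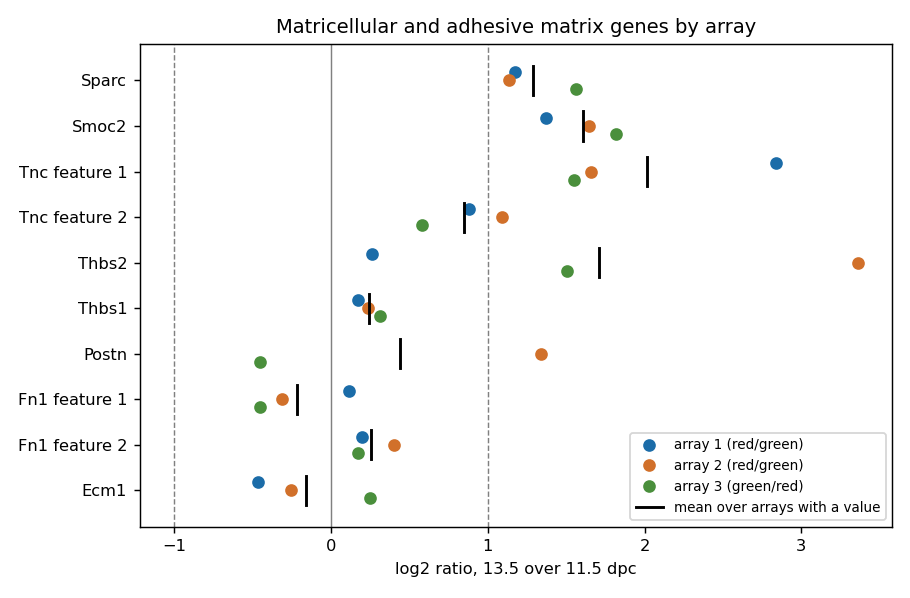
Log2 ratios (x axis, 13.5 over 11.5 dpc) of each feature of the 8 genes with values, 1 point per array and a black line at the mean over the arrays with a value; dashed lines mark 2-fold either way. Sparc, Smoc2 and the first Tnc feature lie beyond 2-fold on all 3 arrays, whereas Thbs2 runs from 0.26 to 3.36.

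Thrombospondins 1 and 2 are secreted glycoproteins that bind calcium, collagen, proteases and the receptors CD36 and CD47. Both are known as inhibitors of blood vessel growth. Thbs2 had log2 ratios of 0.26, 3.36 and 1.51 on arrays 1, 2 and 3. The arrays covered a wide range, with array 2 far above array 1 although both had the same dye order. The mean was 1.71 ± 1.56 (SD, n = 3), and only 4.74% of rows had a larger SD. Its 95% interval of -0.086 to 3.51 included 0 and the adjusted p was 0.541. Without array 2 the mean was 0.88, and without array 1 it was 2.43.

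Thbs1, which also activates latent TGF-beta, had 0.17, 0.24 and 0.31. These were small and even values, with a mean of 0.24 ± 0.07 (SD, n = 3) and an adjusted p of 0.634. The limma interval ran from -0.16 to 0.64, which includes 0 and leaves out a 2-fold ratio. Thbs2 exceeded Thbs1 on each array, by 0.087, 3.13 and 1.20, a difference of 1.47 ± 1.54 whose SD was as large as its mean.

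Fn1 encodes fibronectin, a main ligand of several integrins in embryonic mesenchyme. Its first feature had log2 ratios of 0.11, -0.32 and -0.45 on arrays 1, 2 and 3. Its second had 0.20, 0.40 and 0.17. The means of -0.22 ± 0.29 and 0.26 ± 0.13 thus had opposite signs, as did those of 52.9% of the 971 genes with several features. Averaged, Fn1 had 0.15, 0.04 and -0.14, a mean of 0.02 ± 0.15 and an adjusted p of 0.968. The interval of the average, from -0.41 to 0.45, includes 0 and leaves out a 2-fold ratio.

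Ecm1 encodes a secreted glycoprotein best known from skin, where it binds other matrix proteins. Its log2 ratios were -0.46, -0.25 and 0.25, with array 3 on the other side of 0. The mean was -0.16 ± 0.37 (SD, n = 3) and the adjusted p was 0.80. Postn encodes periostin, a protein of collagen-rich mesenchyme, and had 1.34 on array 2, -0.46 on array 3 and no value on array 1. Its 2 values had opposite signs, and their mean of 0.44 ± 1.27 (SD, n = 2) had an adjusted p of 0.807 in a fit that kept features with values on at least 2 arrays.

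Promoter windows from RefSeq (GRCm38.p6, 250 bases before to 50 after the annotated start, 5′ to 3′) are shown for Sparc, Tnc and Ecm1. Sparc and Tnc (averaged over its 2 features) were at least 2-fold on every array, and Ecm1 was of mixed sign. The promoter table held at least 1 window for 7 of the 10 genes. Capitals mark matches, on either strand, to the TATA box TATAAA, the GC box GGGCGG, the CCAAT box CCAAT and the AP-1 site TGANTCA. No matches overlap in the windows shown.
Sparc, chr11:55420031-55420330, minus strand: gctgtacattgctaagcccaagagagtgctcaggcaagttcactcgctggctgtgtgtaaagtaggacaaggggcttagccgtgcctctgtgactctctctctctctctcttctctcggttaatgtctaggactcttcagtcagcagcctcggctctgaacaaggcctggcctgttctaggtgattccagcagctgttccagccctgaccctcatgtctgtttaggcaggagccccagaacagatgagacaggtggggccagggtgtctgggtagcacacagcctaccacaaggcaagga
Tnc, chr4:64046966-64047265, minus strand, the first of 2 annotated starts: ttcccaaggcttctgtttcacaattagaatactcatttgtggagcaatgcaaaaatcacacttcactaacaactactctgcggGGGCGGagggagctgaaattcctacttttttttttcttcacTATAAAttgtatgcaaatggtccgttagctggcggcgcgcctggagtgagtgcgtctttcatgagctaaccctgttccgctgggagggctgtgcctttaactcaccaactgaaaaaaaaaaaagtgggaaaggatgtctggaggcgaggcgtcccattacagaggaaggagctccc
Ecm1, chr3:95739520-95739819, minus strand: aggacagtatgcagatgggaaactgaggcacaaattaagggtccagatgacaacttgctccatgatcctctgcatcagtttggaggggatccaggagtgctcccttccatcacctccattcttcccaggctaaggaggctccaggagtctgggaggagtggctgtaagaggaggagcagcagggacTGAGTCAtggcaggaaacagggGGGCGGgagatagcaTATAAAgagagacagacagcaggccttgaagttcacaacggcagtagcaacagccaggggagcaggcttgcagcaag
The Sparc window held none of the 4 motifs. That of Tnc held a GC box that began at -167 and a TATA box at -126, relative to this start. The Ecm1 window held a TATA box at -27, a GC box at -42 and an AP-1 site at -64. Among 32851 windows of the same length, 13.6% held the TATA box, 35.7% the GC box, 37.4% the CCAAT box and 7.81% the AP-1 site.

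Of the 7 members, 5 were positive on every array (Sparc, Smoc2, Tnc, Thbs2 and Thbs1), against 18.5% of all rows. None was negative on every array, against 16.8% of all rows, and Fn1 and Ecm1 had mixed signs. At least 2-fold in favour of 13.5 dpc on every array were 3 of 7, against 0.436% of all rows, and in favour of 11.5 dpc 0 of 7, against 0.247%. At 1.5-fold there were also 3 of 7 in favour of 13.5 dpc, against 1.33% of all rows, and at 3-fold 0 of 7, against 0.0578%. Sparc, Smoc2 and Tnc had an unadjusted limma p under 0.05 in that direction, against 5.07% of all rows, and 0 of 7 had one in the other direction, against 4.17%. Past the adjusted threshold there were 0 of 7 members and 0% of all rows, with a smallest adjusted p of 0.326 among the members and 0.197 among all rows. The median log2 ratio of the members was 1.29, beside 0.0084 for all rows. By array it was 0.26, 1.13 and 1.07. The low median on array 1 was the value of Thbs2, while Sparc, Smoc2 and Tnc had 1.17, 1.37 and 1.86 there. These members were listed with earlier results of the same arrays known, so the counts describe them and are no independent evidence of a direction.

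With the sign of array 3 turned, 0 of 7 members were at least 2-fold in favour of 13.5 dpc on every array, against 0.147% of all rows in that orientation. Only Fn1 was then positive on all 3, or 1 of 7, against 10.3% of all rows. The median was then 0.25, and the means of Sparc, Smoc2 and Tnc were 0.25, 0.40 and 0.72. Ecm1 alone was negative on every array, against 18.9% of all rows. After a running median along the oligonucleotide library was subtracted, Sparc, Smoc2 and Tnc were the 3 members positive on every array. Thbs1 and Thbs2 then had -0.14 and -0.073 on array 1. The share of all rows is not given for this setting.

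**Figure D2:**
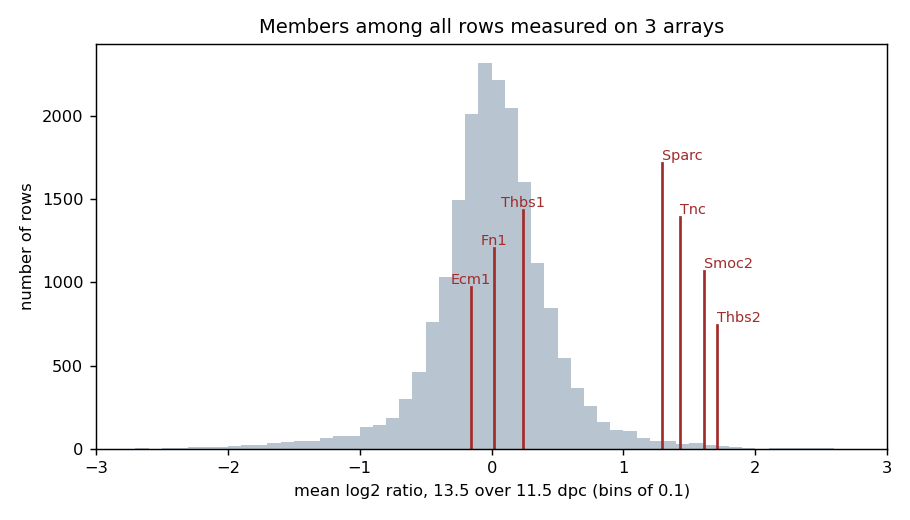
Number of rows (y axis) by mean log2 ratio of 13.5 over 11.5 dpc (x axis, bins of 0.1, shown from -3 to 3) for the 19015 rows, with a red line at each member's mean; line heights only separate the names. Sparc, Tnc, Smoc2 and Thbs2 lie in the right tail, and Thbs1, Fn1 and Ecm1 within the body of the distribution.

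Among all rows by mean, with array 3 as deposited, Thbs2 ranked 52, Smoc2 76, Tnc 130 and Sparc 191 from the highest. With array 3 turned, Thbs2 ranked 1170, Smoc2 2282, Tnc 1128 and Sparc 3678, so the high ranks hold only for the deposited orientation. Thbs1, Fn1 and Ecm1 ranked 4672, 9259 and 13203 as deposited, and 7652, 5883 and 15633 with array 3 turned. Thbs1, Fn1, Smoc2 and Sparc had the smallest SDs of the 7 over arrays, and 96.1%, 84.6%, 69.6% and 67.1% of rows had a larger SD than these genes in that order. The gap between array 3 and the mean of the other two, which differ in dye order, was 0.41 for Sparc, 0.31 for Smoc2, -0.55 for Tnc and 0.61 for Ecm1. In a limma fit with a dye term, 0 of 7 members had an unadjusted p under 0.05 for dye, against 12.7% of all rows, and their adjusted p for dye ran from 0.548 to 0.954. That fit leaves little to estimate the spread from, since only array 3 had the opposite order.

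The relatives of the members in their protein families had no common sign. Of 26 listed genes 24 were measured, and 0 passed the adjusted limma threshold in either direction. Positive on every array were 4, against 18.5% of all rows, and negative on every array another 4, against 16.8%. The median was -0.016. With array 3 turned, 1 was positive and 4 were negative on every array, against 10.3% and 18.9% of all rows. The median was then -0.066. By unadjusted p under 0.05, 2 of the relatives were positive, against 5.07% of all rows, and 1 was negative, against 4.17%. Comp, a thrombospondin of cartilage and tendon, had 0.44 ± 0.13, and Smoc1, the closest relative of Smoc2, had -0.51 ± 0.26 (SD, n = 3 arrays, adjusted p = 0.539 for both).

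Smoc1 had -0.79, -0.44 and -0.29 on arrays 1, 2 and 3, where Smoc2 was positive throughout. Smoc2 thus exceeded Smoc1 by 2.16, 2.09 and 2.10, or 2.12 ± 0.04 (SD, n = 3), so the paralogs' ratios lay apart by nearly the same amount on each array, with array 3 as deposited. The pair was picked out after its values were seen, and the difference is given without a test. Also chosen after their values were seen were the other paralogs named here. Sparcl1, the closest relative of Sparc, had -0.96, -0.90 and 1.30, so array 3 opposed the other two. Thbs4 had -0.24 ± 0.08 and Thbs3 0.17 ± 0.41, both within 2-fold on every array.

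Among receptors of these proteins, 14 of 16 listed genes were measured. On every array 6 were positive, against 18.5% of all rows, and 0 were negative, against 16.8%. An unadjusted p under 0.05 was found for 4, all positive, against 5.07% of all rows, and 0 passed the adjusted threshold. The median was 0.35, and it was 0.20 after the running median, with 3 positive on every array. For the running median no share of all rows is given. With array 3 turned it was 0.091, with 4 positive and 1 negative on every array, against 10.3% and 18.9% of all rows. Itga5, the fibronectin receptor subunit, had 0.83, 0.51 and 0.41, a mean of 0.58 ± 0.22 (adjusted p = 0.516). Cd36, the thrombospondin receptor, had 0.13, 2.09 and 2.23, a mean of 1.48 ± 1.17 (adjusted p = 0.539). Its array 1 value was near 0, as was that of Thbs2, while arrays 2 and 3 were past 2-fold for both genes. This likeness was picked out after the values were seen and was not tested. Cd47, also a thrombospondin receptor, had -0.06, 0.05 and 0.28, and Thbs1 had 0.17, 0.24 and 0.31. The integrin subunit Itga8, which pairs with beta-1 at the contact of mesenchyme and ureteric bud, had 1.63, 0.82 and -0.35 and was named after its values were seen.

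Binding partners and processing enzymes, which include fibrillar collagens, TGF-beta ligands and proteases, had 20 of 21 genes measured. On every array 6 were positive, against 18.5% of all rows, and 1 was negative, against 16.8%. At an unadjusted p under 0.05, 3 were positive, against 5.07% of all rows, and 0 were negative, against 4.17%. Past the adjusted threshold there were 0. The median was 0.26. With array 3 turned it was -0.018, with 4 positive and 3 negative on every array, against 10.3% and 18.9% of all rows. Tll1, a protease of the BMP1 family, had 1.02, 0.68 and 0.40, a mean of 0.70 ± 0.31. Tgfb1, the growth factor whose latent form Thbs1 can activate, had 0.97, 0.81 and 0.33, a mean of 0.71 ± 0.33. Both were positive on all arrays, each with an adjusted p of 0.516.

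**Figure D3:**
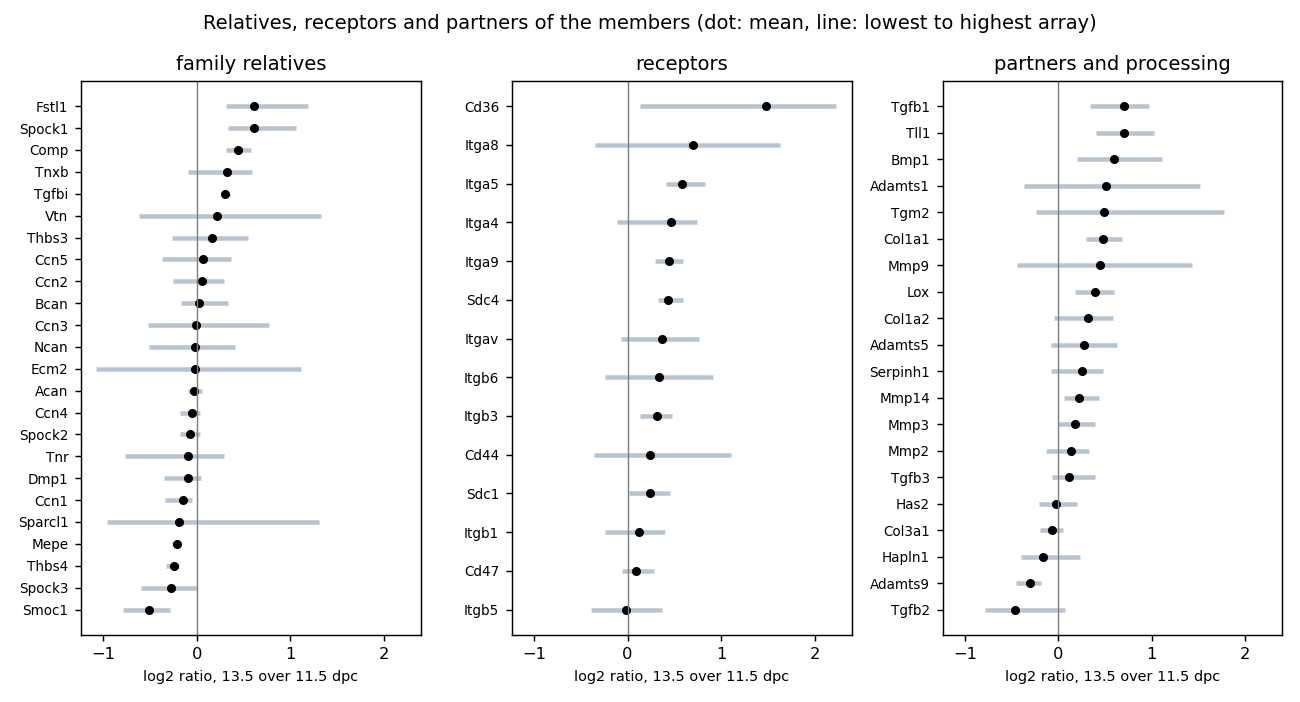
Mean log2 ratio of 13.5 over 11.5 dpc (dot, x axis) and the range from the lowest to the highest of 3 arrays (line) for each measured relative, receptor and partner of the members. Receptors lie mostly right of 0 (median 0.35), and relatives on both sides (median -0.016). No gene of these lists was at least 2-fold on every array. Of all rows, 0.436% were so in favour of 13.5 dpc and 0.247% in favour of 11.5 dpc.

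Markers of cell types that make or border on such matrix were read from the same limma fit. Of 60 genes measured, 0 passed the adjusted threshold. An unadjusted p under 0.05 was found for 9 positive ones, against 5.07% of all rows, and 9 negative ones, against 4.17%. For the counts below, 18.5% of all rows were positive and 16.8% negative on every array. The 2 genes named first for each cell type were those with the smallest p in its list. Endothelial markers had a median of 0.47 over 8 genes, 6 of them positive on every array, with Icam2 at 0.83 ± 0.10 and Cdh5 at 0.55 ± 0.11. Renal stroma markers had a median of -0.36 over 7 genes, 3 positive and 4 negative on every array, with Meis1 at -0.73 ± 0.14 and Foxd1 at -0.72 ± 0.36. The 3 positive ones were Aldh1a2, Tcf21 and Pdgfra, with means of 0.30, 0.29 and 0.15. Smooth muscle and pericyte markers had a median of 0.20 over 8 genes, 3 positive and 2 negative on every array, with the potassium channel gene Kcnj8 at 2.59 ± 0.04 and Tagln at -0.56 ± 0.28. Mesothelial markers had a median of 0.31 over 3 genes, all positive on every array, with Msln at 1.02 ± 0.45 and Wt1 at 0.31 ± 0.20. Wt1, whose value was this median, was also on the nephron progenitor list.

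Macrophage markers had a median of -0.24 over 7 genes, 4 of them negative and 0 positive on every array, with Fcer1g at -0.33 ± 0.16 and Aif1 at -0.28 ± 0.17. Cartilage and bone markers had a median of -0.024 over 7 genes, 2 positive and 2 negative on every array, with the cartilage collagens Col9a1 at -1.56 ± 0.42 and Col2a1 at -0.43 ± 0.10. The 2 positive ones were Comp and Sox9, with means of 0.44 and 0.28. Comp and Acan of this list were also among the relatives. Erythroid markers had a median of -1.17 over 7 genes, 5 negative and 0 positive on every array, with Klf1 at -2.18 ± 0.22 and Hbb-bh1 at -4.07 ± 1.09. Gata1 of this list had 1.54, 0.72 and -0.06 on arrays 1, 2 and 3, a positive mean of 0.73 ± 0.80. Nephron progenitor markers had a median of 0.27 over 8 genes, 6 positive and 1 negative on every array, with Cited1 at 0.85 ± 0.37 and Osr1 at -0.42 ± 0.14. Ureteric bud markers had a median of 0.012 over 6 genes, 2 positive and 2 negative on every array, with Cdh16 at 1.62 ± 0.12 and Hoxb7 at 0.39 ± 0.32. The 2 negative ones were Ret and Calb1, with means of -0.30 and -0.19. Most of these counts depended on the orientation of array 3. Of all rows, 10.3% were positive and 18.9% negative on every array with array 3 turned. With it turned, the endothelial median was 0.17 with 0 genes positive on every array, that of mesothelium 0.18 with 0 positive, and that of nephron progenitors 0.13 with 1 positive. The erythroid median was then -0.44 with 0 genes negative on every array, and the macrophage median was -0.14 with 2 negative. Renal stroma had 0.035 and smooth muscle and pericyte markers -0.063, both turned in sign, cartilage and bone -0.074 and the ureteric bud 0.087. After the running median the ureteric bud had -0.033. The part of any of these cell types in the members' ratios was not tested.

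The members' median profile over arrays 1, 2 and 3 was 0.26, 1.13 and 1.07. These were the values of Thbs2, Sparc and Tnc in that order, so no single member had this profile. By Euclidean distance over the 3 arrays, the 5 nearest named genes outside the list were Rai14, 4930538L07Rik, Kcnk10, Tm4sf1 and Plxnd1, at distances of 0.14 to 0.28 log2 units. Rai14 had 0.32, 1.09 and 1.19, and Plxnd1, a semaphorin receptor of endothelium, had 0.22, 1.04 and 0.81. The likeness rests on 3 values a gene.

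**Figure D4:**
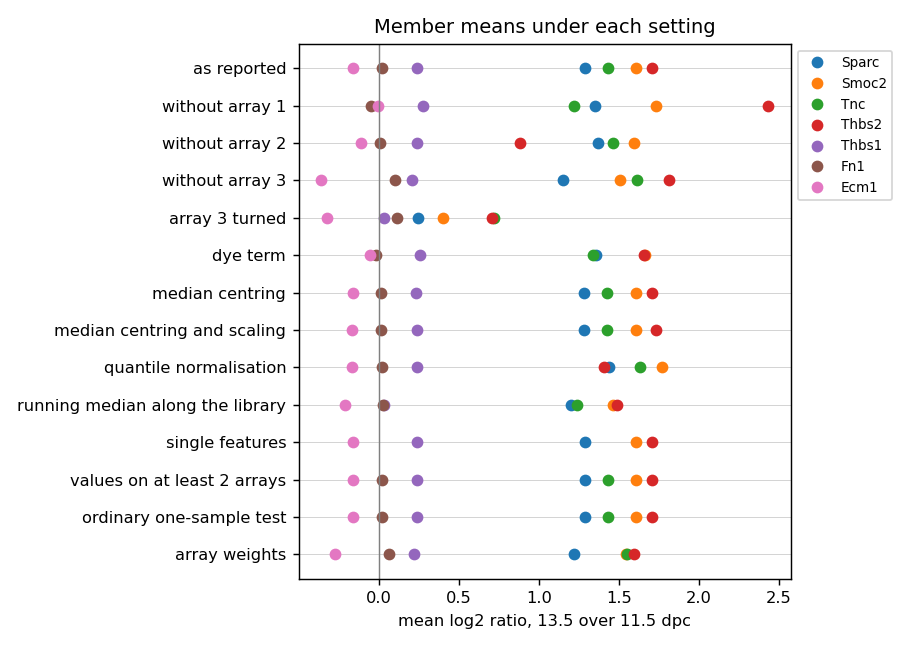
Mean log2 ratio of 13.5 over 11.5 dpc (x axis) of the 7 members under each processing setting (y axis, 1 row per setting, 1 colour per gene). Tnc and Fn1 have no point under single features, where their features stand apart. The values with array 3 turned lie nearest to 0 for Sparc, Smoc2, Tnc and Thbs2.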

How the data were processed

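The deposited table holds log2 ratios of 3 two-channel arrays, normalised by the authors. Per the labels, ImaGene 5.5 read the images. They name both a print-tip loess with a between-array step and a Lowess curve through 20% of the data with control values under 10 set to 10. Which of these was applied is not given in the sources. Base 2 was found from the values: 2 raised to each value between -3 and 2 gave a multiple of 0.001, within 0.02 of a step, for 100% of them (4.26% for base 10). Spot intensities were not used here, so dim or saturated spots could not be assessed; the number of arrays limits the precision.

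Of 22702 features, 883 controls or blanks were left out. Of the rest, 20386 were complete over the 3 arrays. Averaging these by symbol gave 19015 rows. Arrays 1, 2 and 3 held 20601, 21274 and 21563 measured gene features, whose log2 ratios had SDs of 0.56, 0.79 and 0.97. Symbols came from the platform annotation, checked through Entrez identifiers against GRCm38.p6 (15970 features matched).

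The test of each row's mean against 0 used limma (version 3.58.1, R 4.3.3; lmFit, eBayes, two-sided, Benjamini-Hochberg over all rows, threshold 0.05), after the procedure had been tested on simulated data. In that simulation the rows of each array were shuffled separately and 50 rows were changed by each known size. The adjusted threshold was passed by 0% of rows changed by 1 log2 unit and by 18% of those changed by 2. A member that did not pass may thus still have changed by such a size. The shuffling put the spread among genes in place of the spread of a row over arrays. These shares therefore need not hold for members with a smaller SD. Alternatives left out each array, turned array 3, added a dye term, changed the normalisation, the features kept or the test, or weighted arrays. Besides the members, the 2 genes with the smallest p of each list and the 5 genes nearest to the members' median profile were named by rule, since no gene passed the threshold. The members and lists were chosen with earlier results of these data known.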

Additional observations from a re-analysis of the deposited data

How the results depend on the processing

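Under each of the 13 alternatives, the ordinary one-sample test among them, 0 rows passed. Rows with an unadjusted p under 0.05 numbered 1757, 736 to 2346 with 1 array left out (736 without array 1, 1020 without array 2) and 2669 with a dye term. The count of members at least 2-fold on every array was 3, against 0.436% of all rows. It was 0 with array 3 turned, against 0.147%, and 0 at 3-fold, against 0.0578%. After median centring, with or without scaling, it was 2. Without array 1, where only arrays 2 and 3 had to pass, it was 4, as Thbs2 joined. The share of all rows is not given for centring or without array 1, so those counts cannot be judged against it. The count positive on every array was 5, against 18.5% of all rows, and 1 with array 3 turned, against 10.3%. After the running median it was 3, with no share of all rows given. The members' median was 1.29, 0.25 with array 3 turned and 0.88 to 1.22 with 1 array left out. It was 0.85 over single features, and 0.87 with features valued on at least 2 arrays kept, where Postn joined. Fn1 changed sign: its mean was 0.02, -0.047 to 0.099 with 1 array left out (the lower without array 1), -0.020 with the dye term, and -0.22 for its first feature alone. The other 6 members kept their sign under each alternative. Member adjusted p lay between 0.136 (Smoc2 with the dye term) and 0.999 over the alternatives. Each ratio already pairs both ages within an array. The causes were not tested, and signal over background was not assessed.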
